A study of Mus musculus with 2 samples.

Results

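The genes described here run the mitochondrial tricarboxylic acid (TCA) cycle, feed pyruvate and amino acids into it, and make itaconate from it. They were taken from the deposited expression table by their symbols, and all 37 listed genes were found among the 17270 named genes. The list was drawn from pathway membership by a rule that used no measured value. It was chosen with earlier results of these data known. The values come from bulk messenger RNA of macrophages cultured out of bone marrow, from Ninj1+/+ mice (wild type) and from Ninj1-/- mice (knockout), all 6 weeks old. The gene product, ninjurin 1, is a plasma membrane protein known for adhesion and for rupture of the membrane when cells lyse. Marrow had been differentiated over 7 days with the growth factor M-CSF. Both genotypes then received 500 ng/ml lipopolysaccharide together with 20 ng/ml interferon-gamma, so no unstimulated cells stand beside them. Each genotype is registered as 1 sample and has 2 columns in the table.

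In the TCA cycle, acetyl-CoA is joined to oxaloacetate as citrate and oxidised stepwise back to oxaloacetate, which yields reducing equivalents for the respiratory chain. Pyruvate enters mitochondria through the carrier made of Mpc1 and Mpc2 and is converted to acetyl-CoA by pyruvate dehydrogenase or to oxaloacetate by pyruvate carboxylase. In mouse macrophages stimulated with lipopolysaccharide the cycle is known to be interrupted after citrate and at succinate. Acod1, induced strongly by such stimuli, removes the intermediate cis-aconitate to make itaconate, which inhibits succinate dehydrogenase and has antimicrobial activity.

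The columns held 46798381 to 62684262 recovered reads, of which the 10 most abundant genes took 9.15% to 9.62%. Ninj1 stood at 28849.6 and 31158 normalized counts in the wild-type columns and at 3519 and 4086 in the knockout columns. The direction is the one the labels require. The knockout level was 0.1265-fold of wild type, with 2791 and 2704 reads remaining, and the source of these reads was not tested. All 8 macrophage markers and all 5 classical activation markers had reads in every column, with Itgam and Mertk called lower and Il12b and Il6 called higher in the knockout. Nothing in the labels says whether the columns of a genotype came from separate mice, cultures or libraries, so the p-values cover the variation among these columns alone, and that variation may be technical. The median gene differed by 0.13 on the log2 scale between the wild-type columns and by 0.105 between the knockout columns. In bulk RNA, fewer cells of a type and less RNA per cell cannot be told apart.

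None of the pathway genes passed the test for a genotype difference. Pdk4, a pyruvate dehydrogenase kinase, had 0 reads in each column, and the other 36 genes were tested with limma in a fit over every gene reaching 20 reads in some column. In all, 0 of these 36 had a limma adjusted p below 0.05, against 2.91% of the 12872 genes tested (1.67% higher and 1.24% lower in the knockout). The lowest limma adjusted p among them was 0.102, for Pdk2. edgeR, which called 2.94% of all genes, also called 0 of the 36, and DESeq2, which called 6.38% of the genes it gave an adjusted p, called 0 of the 32 it evaluated. An unadjusted limma p under 0.05 was found for 8 of the 36, or 22.2%, against 19.8% of all genes, a share close to the background. The 6 with higher knockout means, where 10.3% of all genes were found, were Dld, Pdhb, Pdp1, Me1, Mpc2 and Idh3a. The 2 with lower means, against 9.45% of all genes, were Pdk2 and Pcx.

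The estimates were narrow enough to bound most differences between these columns. They cover the variation among the columns alone, which may be technical, and do not bound the difference between the genotypes beyond them. A total of 34 of the 36 unadjusted 95% confidence intervals lay within 1.5-fold of no difference in either direction, and the exceptions were Pdk2 and Suclg2, which had the fewest reads. The median interval reached 0.17 on the log2 scale to each side, equal to 1.13-fold. The median log2 ratio (knockout minus wild type) was 0.08 over the 36 genes and -0.0034 over all genes tested. Ratios above 0 were found for 23 genes and below 0 for 13, while 49.3% of all genes had a ratio above 0. The median depended on single columns. It was 0.009 without wild-type column 1 and 0.14 when column 2 was left out instead, and wild-type column 2 exceeded wild-type column 1 for 26 of the 36 genes (72.2%, against 50.1% of all genes).

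**Figure D1:**
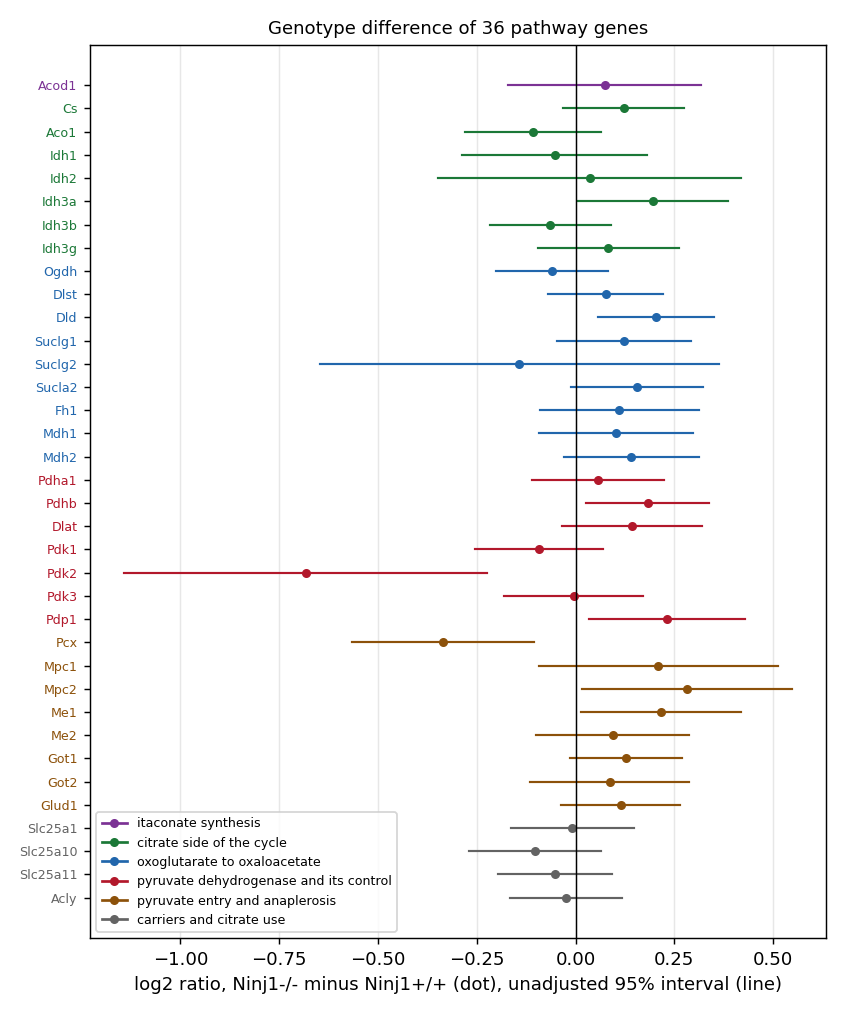
Log2 ratio of Ninj1-/- to Ninj1+/+ macrophages for 36 pathway genes on the log2(normalized count + 1) scale, coloured by role. Dots are the limma estimates from 2 columns per genotype and lines their unadjusted 95% intervals; most lie near 0, and Pdk2 (-0.68) and Pcx (-0.34) are farthest to the left.

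Columns of the genotypes did not overlap for 22 of the 36 genes, or 61.1%, against 51.1% of all genes. The knockout columns were the higher ones for 15 of these genes and the lower ones for 7, where 25.5% and 25.6% of all genes were found. For 17 of the 36 genes (47.2%, against 48.2% of all genes) the genotype ratio was smaller in size than the difference between the wild-type columns.

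**Figure D2:**
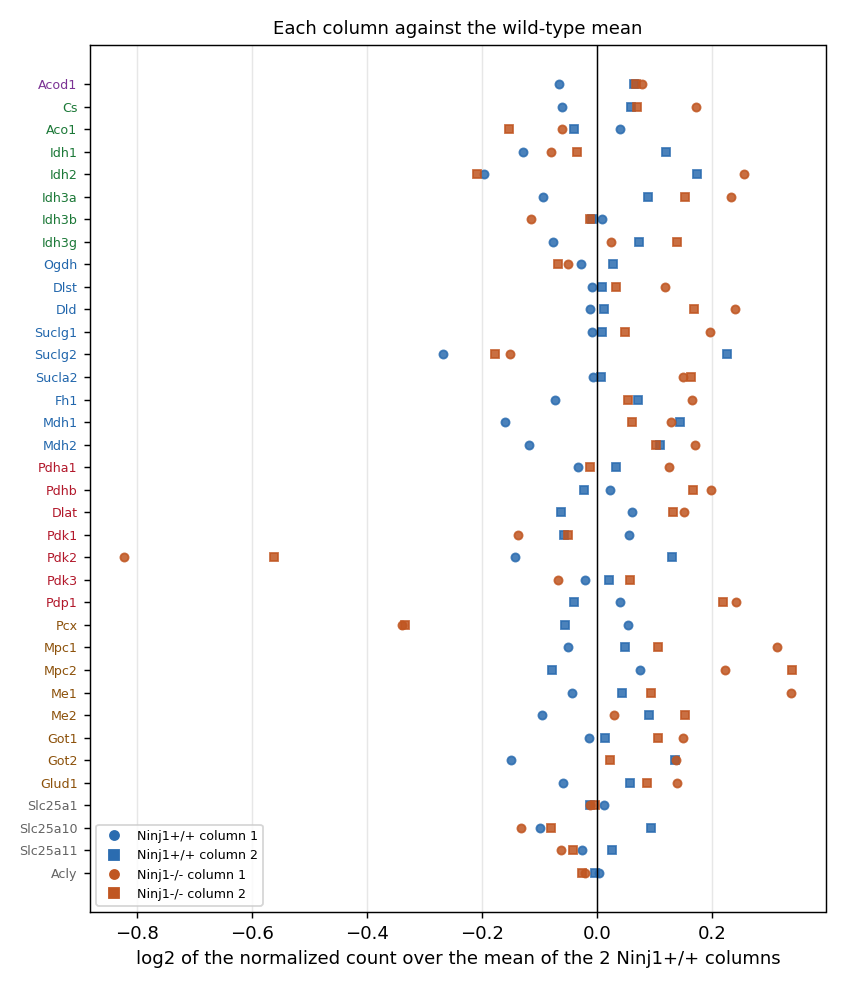
Normalized count of each column as log2 over the mean of the 2 Ninj1+/+ columns, for the same 36 genes in the order of their roles. Circles and squares are columns 1 and 2 of a genotype; the wild-type columns are spread as widely as the genotypes for many genes, such as Mdh1, Got2 and Idh2, and both knockout columns lie apart from both wild-type columns for Pdk2 and Pcx.

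Acod1 (Entrez 16365; GRCm38 chromosome 14, 103046977 to 103056573, plus strand), which encodes the cis-aconitate decarboxylase that makes itaconate, dominated the set in both genotypes. It was the gene with rank 4 of all genes by normalized count in every column and took 0.877% to 0.956% of all counts. The other 36 listed genes together took 0.229% to 0.240%. Its level was 666187 and 728864 normalized counts in the wild-type columns and 736063 and 730609 in the knockout columns. The knockout columns were both above the wild-type columns, but by a small margin over wild-type column 2, and wild-type column 1 stood below the other three. The means were 697525 ± 44319 and 733336 ± 3856 normalized counts (SD, n = 2 columns each), a log2 ratio of 0.07 (SE 0.11, limma's adjusted p = 0.764). The 95% interval of that difference ran from 0.889-fold to 1.25-fold. Without wild-type column 1 the log2 ratio was 0.0088.

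Per kilobase of transcript Acod1 was measured at 39.3 to 42.0 times the level of Cs, the citrate synthase at the entry of the cycle. The promoters of both are shown, Acod1 as the most abundant gene of the set and Cs as the enzyme that starts the cycle. RefSeq windows of GRCm38.p6, from 250 bases before to 50 after the annotated start, were found for 34 of the 37 genes, with Idh3a, Me2 and Pdp1 not matched. Capitals mark matches to the TATA box (TATAAA), the CCAAT box (CCAAT) and the GC box (GGGCGG) on either strand. The Acod1 window is chr14:103046762-103047061 on the plus strand and the Cs window chr10:128337477-128337776 on the plus strand.
Acod1: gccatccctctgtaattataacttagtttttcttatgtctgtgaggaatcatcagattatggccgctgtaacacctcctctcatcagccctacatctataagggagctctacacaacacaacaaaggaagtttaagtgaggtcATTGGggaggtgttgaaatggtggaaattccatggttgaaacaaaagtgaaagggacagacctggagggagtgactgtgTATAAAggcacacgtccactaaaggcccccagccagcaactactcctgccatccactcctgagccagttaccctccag
Cs: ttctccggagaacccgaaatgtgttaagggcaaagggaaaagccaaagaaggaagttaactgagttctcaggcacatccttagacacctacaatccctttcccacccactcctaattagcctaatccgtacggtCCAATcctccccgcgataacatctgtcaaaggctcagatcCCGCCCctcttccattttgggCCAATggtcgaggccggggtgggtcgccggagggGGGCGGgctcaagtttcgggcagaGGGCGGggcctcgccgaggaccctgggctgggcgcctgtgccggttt
The Acod1 window held 2 CG dinucleotides, the fewest of the 34, and the Cs window 18. The median was 22 over the 34 genes and 19 over the windows of 12819 genes in the table. A TATA box stood 28 bases before the Acod1 start, and Got2 was the other gene of the set with a match, against 8.66% of all windows. CCAAT boxes were found in 22 of the 34 windows (64.7%, against 38.7% of all windows) and GC boxes in 24 (70.6%, against 58.4%). Among motifs of immune signalling, the interferon-gamma-activated site (TTCNNNGAA) was found in 0 of the 34 windows against 7.22% of all. The interferon-stimulated response element (GAAA, any 2 bases, GAAA) was found only in the window of Suclg2 (3.20% of all windows). The kappaB motif (GGGRNNYYCC, with R for A or G and Y for C or T) was found in 8 of the 34 windows. That is 23.5%, against 10.1% of all, and Acod1 was not among the 8. The AP-1 site (TGANTCA) was found in 2 windows (5.88% of all). For mitochondrial gene regulators, the NRF1 motif (GCGC, any 2 bases, GCGC) was found in 3 windows (11.8% of all) and the estrogen-related receptor motif (TNAAGGTCA) in 0 (0.803% of all). Both strands were searched, and matches are letters in these windows, not binding sites.

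**Figure D3:**
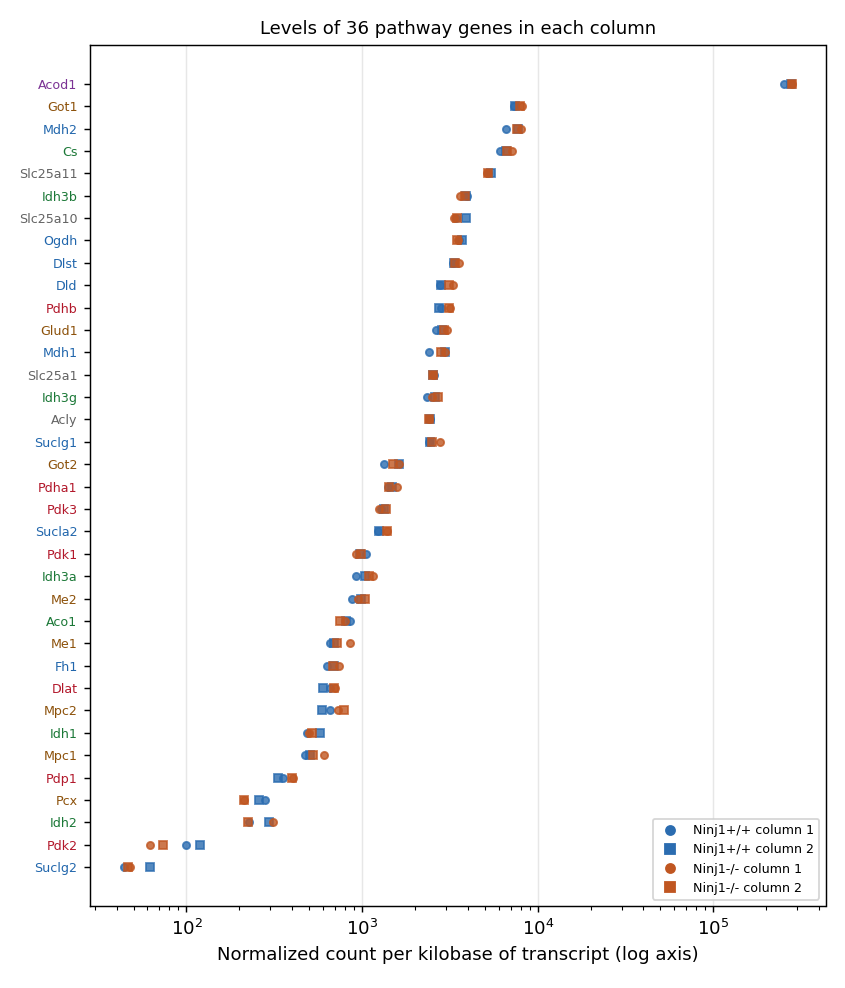
Normalized count per kilobase of transcript, on a log axis, for 36 pathway genes in each of the 4 columns, ordered by the wild-type mean. Points are coloured by genotype, and gene names by role as in the plot of log2 ratios. Acod1 stands far to the right of all others, Got1, Mdh2 and Cs follow, and Suclg2 and Pdk2 are lowest; the genotypes lie close together for most genes.

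On the citrate side of the cycle, 0 of 7 genes passed the test, and Idh3a had the largest ratio. Cs stood at 17783 and 19344 normalized counts in the wild-type columns and at 20902 and 19487 in the knockout columns. The knockout columns were higher, the lower of them by less than the gap between the wild-type columns, and the log2 ratio was 0.12 (SE 0.07, limma's adjusted p = 0.368). Aco1, the cytosolic aconitase that also serves as an iron-regulatory protein, had a log2 ratio of -0.11. Idh3a (chromosome 9, 54586334 to 54604661), the catalytic subunit of the NAD-linked isocitrate dehydrogenase, was measured at 2212 and 2510 normalized counts in wild type and at 2775 and 2625 in the knockout. Its columns did not overlap, and its log2 ratio of 0.20 (SE 0.09) had a limma adjusted p of 0.237. Its partner subunits Idh3b and Idh3g had log2 ratios of -0.06 and 0.08. Idh1, the cytosolic NADP-linked isozyme, and Idh2, its mitochondrial counterpart, had log2 ratios of -0.05 and 0.04, with overlapping columns. Idh2 ranged from 393 to 542 normalized counts and held the lowest and the highest of these values in the knockout.

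Within a column and per kilobase, the isocitrate dehydrogenase transcripts kept the same order in both genotypes. Idh3b exceeded Idh3a by 4.27-fold and 3.72-fold in the wild-type columns and by 3.13-fold and 3.55-fold in the knockout columns. Idh1 exceeded Idh2 by 1.61-fold to 2.30-fold over the 4 columns. Both ends of that range came from the knockout columns.

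From oxoglutarate to oxaloacetate, 0 of 9 genes passed, and 7 had ratios above 0. Dld (chromosome 12, 31331277 to 31351453), the dihydrolipoamide dehydrogenase shared by pyruvate dehydrogenase, oxoglutarate dehydrogenase and other complexes, was measured at 7023 and 7138 normalized counts in wild type and at 8364 and 7956 in the knockout. The knockout columns lay above the wild-type columns by more than either genotype's columns differed, and the log2 ratio was 0.20 (SE 0.07, limma's adjusted p = 0.121). The Dld transcript has a GC content of 40.6%, near the lowest of the set. After removal of each column's trend with GC and length its log2 ratio was 0.07. Ogdh, which encodes the first component of oxoglutarate dehydrogenase, and Dlst, its second, had log2 ratios of -0.06 and 0.08. Mdh2, the mitochondrial malate dehydrogenase, stood at 9554, 11201, 11682 and 11144 normalized counts in wild-type columns 1 and 2 and knockout columns 1 and 2. The lone low value was wild-type column 1, and the log2 ratio went from 0.14 with all columns to 0.26 when wild-type column 2 was left out and to 0.03 when column 1 was. Mdh1, the cytosolic isozyme, had a log2 ratio of 0.10, and Fh1, the fumarase, of 0.11.

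Succinyl-CoA synthetase pairs the shared subunit Suclg1 with Sucla2, which makes the ATP-forming enzyme, or with Suclg2, which makes the GTP-forming enzyme. Sucla2 was measured at 2759 and 2783 normalized counts in wild type and at 3074 and 3102 in the knockout. The columns of each genotype lay close together and did not overlap between genotypes, and the log2 ratio was 0.16 (SE 0.08, limma's adjusted p = 0.284). Suclg1 had a log2 ratio of 0.12, also without overlap. Suclg2 stood at 148 and 208 normalized counts in wild type and at 160 and 157 in the knockout, with 91 to 147 reads per column. The wild-type columns enclosed the knockout columns, and the log2 ratio of -0.14 had the widest interval of the set, from -0.65 to 0.36. Per kilobase, Suclg2 was 0.0335 to 0.0494 of Sucla2 in the 4 columns, so the transcript of the ATP-forming partner predominated in both genotypes.

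**Figure D4:**
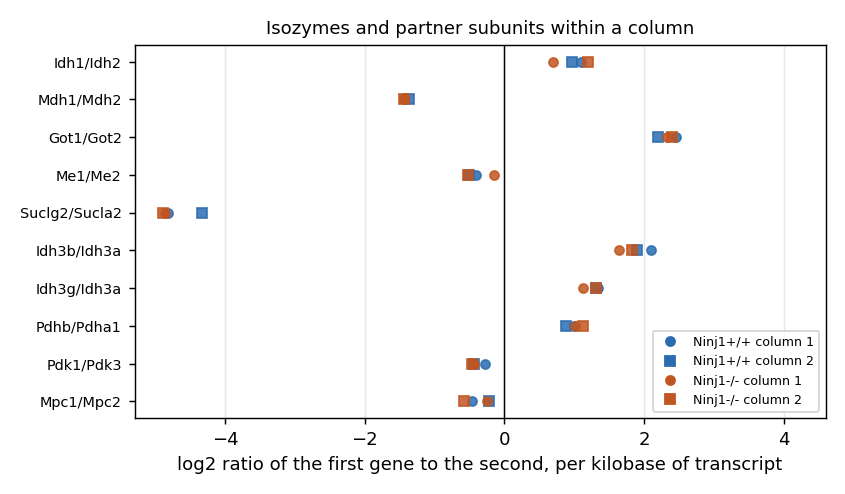
Log2 ratio between isozymes or partner subunits within each column, per kilobase of transcript, for the 2 Ninj1+/+ and 2 Ninj1-/- columns. The ratios differ widely between pairs, from -4.90 for Suclg2/Sucla2 in a knockout column to 2.46 for Got1/Got2 in a wild-type column. For Suclg2/Sucla2, wild-type column 2 stands apart from the other three columns.

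Pyruvate dehydrogenase and its control held the largest ratio of the whole set. Pdk2 (Entrez 18604; chromosome 11, 95026258 to 95041354, minus strand), a kinase that inactivates pyruvate dehydrogenase, was measured at 222 and 269 normalized counts in wild type and at 139 and 166 in the knockout. Both knockout columns lay below both wild-type columns. The means were 246 ± 32.8 and 152 ± 19.5 normalized counts (SD, n = 2 columns each), which gives a log2 ratio of -0.68 (SE 0.21, limma's adjusted p = 0.102; edgeR adjusted p = 0.107). The unadjusted 95% interval ran from 0.453-fold to 0.857-fold. Its counts were low, with 137 and 190 reads in wild type and 110 in each knockout column. The Pdk2 transcript has a GC content of 56.9%, and its log2 ratio was -0.65 after removal of GC and length trends. Over the alternatives the adjusted p ran from 0.0864 with column number as a block to 0.463 without knockout column 1, and DESeq2 gave none. The Pdk2 promoter, the window of the gene with the largest ratio, is chr11:95041322-95041621 on the minus strand, and capitals mark its 3 CCAAT boxes, all read on the opposite strand.
Pdk2: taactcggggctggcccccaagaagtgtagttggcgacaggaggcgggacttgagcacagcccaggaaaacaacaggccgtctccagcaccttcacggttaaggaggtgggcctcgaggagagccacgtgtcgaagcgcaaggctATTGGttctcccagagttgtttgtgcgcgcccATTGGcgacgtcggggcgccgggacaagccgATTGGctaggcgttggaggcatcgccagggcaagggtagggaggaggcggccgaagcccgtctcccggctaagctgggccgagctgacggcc

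Pdk2 stood far below the kinases Pdk1 and Pdk3 in both genotypes. Per kilobase, Pdk3 and Pdk1, the latter a known target of the hypoxia factor HIF-1, had wild-type means of 1308 and 1019 normalized counts and knockout means of 1305 and 955. The means of Pdk2 were 109 and 67.9 per kilobase. Pdk1 had a ratio of -0.09 on the log2 scale (limma's adjusted p = 0.529) and Pdk3 of -0.0048 (limma's adjusted p = 0.983), with overlapping columns for both. Pdk4 is listed at 0 in each column. In the same table Glrx5, a gene of iron-sulfur cluster assembly that cells generally express, is also listed at 0, so no limit on the expression of Pdk4 is drawn from its value.

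Pdp1, a phosphatase that reactivates the complex, was measured at 1482 and 1402 normalized counts in wild type and at 1705 and 1679 in the knockout. The knockout columns were higher without overlap, with a log2 ratio of 0.23 (SE 0.09, limma's adjusted p = 0.184). Pdhb, the beta subunit of the first component, stood at 4256 and 4128 normalized counts in wild type and at 4807 and 4709 in the knockout, again without overlap. Its log2 ratio was 0.18 (SE 0.07, limma's adjusted p = 0.182), while its partner Pdha1 had overlapping columns and a ratio of 0.06. Dlat, the acetyltransferase core, had a log2 ratio of 0.14. The transcript of Pdha1 shares 21.2% of its annotated exon bases with an antisense gene, Map3k15, and the sources used here do not say whether counting used strand, so its value is uncertain.

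Among genes of pyruvate entry and anaplerosis, 0 of 8 passed, 7 had ratios above 0 and Pcx lay alone below 0. Pcx (Entrez 18563; chromosome 19, 4510472 to 4621752, plus strand), the pyruvate carboxylase that refills oxaloacetate, was measured at 1131 and 1048 normalized counts in wild type and at 861 and 864 in the knockout. The knockout columns agreed closely and lay below both wild-type columns. The means were 1089.5 ± 58.7 and 863 ± 2.29 normalized counts (SD, n = 2 columns each), a log2 ratio of -0.34 (SE 0.11, limma's adjusted p = 0.109; edgeR adjusted p = 0.101). The unadjusted 95% interval ran from 0.675-fold to 0.930-fold, and the adjusted p over the alternatives ran from 0.0971 to 0.442. The Pcx transcript has a GC content of 57.8%. Its log2 ratio was -0.22 after the GC and length trends were removed.

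The mitochondrial pyruvate carrier subunits stood at similar levels. Per kilobase, the wild-type and knockout means were 622 and 756 normalized counts for Mpc2 and 489 and 567 for Mpc1. Mpc2 was measured at 672 and 604 normalized counts in wild type and at 744 and 807 in the knockout, without overlap, and Mpc1 at 453 and 485 against 582 and 505. The log2 ratios were 0.28 (SE 0.12, limma's adjusted p = 0.225) for Mpc2 and 0.21 (SE 0.14, limma's adjusted p = 0.443) for Mpc1. Both subunits had higher knockout columns, and neither difference passed the test. For Mpc1, 12.7% of exon bases lie under an annotated antisense transcript.

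The malic enzymes turn malate into pyruvate, with Me1 in the cytosol and Me2 in mitochondria. Me1 was measured at 2150 and 2283 normalized counts in wild type and at 2800 and 2366 in the knockout. Knockout column 1 stood well above the other three, knockout column 2 just above wild type, and the log2 ratio of 0.22 (SE 0.09, limma's adjusted p = 0.222) was 0.10 without that column. Me2 had a ratio of 0.09 with overlapping columns. The transaminases Got1, cytosolic, and Got2, mitochondrial, exchange aspartate and glutamate with oxaloacetate and oxoglutarate. Got1 had the highest mean per kilobase of the set after Acod1, although Mdh2 was above it in wild-type column 2. It stood at 15041 and 15330 normalized counts in wild type and 16848 and 16344 in the knockout, with a log2 ratio of 0.13 (SE 0.07, limma's adjusted p = 0.301). Got1 exceeded Got2 per kilobase by 4.58-fold to 5.48-fold over the 4 columns, and both ends of this range came from wild type. Got2 had a ratio of 0.09 and Glud1, which releases oxoglutarate from glutamate, of 0.11.

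The carriers that move cycle acids across the inner membrane, and the enzyme that cleaves exported citrate, had the smallest median size of ratio of any role group with several genes (0.0379 on the log2 scale). All 4 ratios were below 0, and 0 of the 4 genes passed. Slc25a1, the citrate carrier, was measured at 4290 and 4222 normalized counts in wild type and at 4221 and 4245 in the knockout. The 4 values were nearly alike, and the log2 ratio of -0.0079 had a 95% interval from -0.16 to 0.15. Acly, the ATP citrate lyase that makes cytosolic acetyl-CoA, stood at 10750.2 and 10691 against 10565 and 10526 normalized counts. Its ratio of -0.02 (limma's adjusted p = 0.881) had the narrowest interval of the set, from 0.892-fold to 1.08-fold. After removal of GC and length trends, Slc25a1 and Acly had ratios of 0.03 and 0.04. Slc25a10, the dicarboxylate carrier with the largest ratio of this group, stood at 6885 and 7871 normalized counts in wild type and at 6731 and 6983 in the knockout. Its columns overlapped, wild-type column 2 being the highest, and its ratio was -0.10 (limma's adjusted p = 0.498). The oxoglutarate carrier Slc25a11 had a ratio of -0.05. Antisense transcripts overlie 11.3% of the exon bases of Slc25a10 and, among the transaminases, 15% of those of Got2.

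Ratios within the set tended to be lower at higher transcript GC content, as they did across the table. Across the 36 genes, Spearman's rho between transcript GC content and log2 ratio was -0.43, and across 11980 genes tested with a known transcript it was -0.32. These genes share the same 4 columns and are not independent replicates, so no p is given. After each column's GC and length trends were removed, the median log2 ratio of the 36 genes was 0.0375, the number with an unadjusted limma p under 0.05 was 3, and 0 were called. The part of composition in the differences was not tested further.

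Genes of neighbouring steps were listed in 9 groups by function, and of the 81 tested 1 passed, or 1.23% against 2.91% of all genes. Slc25a20, the carnitine-acylcarnitine carrier that brings fatty acids into mitochondria, was measured at 4649 and 4732 normalized counts in wild type and at 5767 and 5635 in the knockout. It rose, without overlap, by a log2 ratio of 0.28 (SE 0.07, limma's adjusted p = 0.0479). The call is narrow: it was lost by edgeR (adjusted p = 0.0526), after removal of GC and length trends (limma's adjusted p = 0.0950), without a filter, and without any 1 of the 4 columns. The other 7 carriers tested did not pass.

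Of 15 further genes of the cycle and its dehydrogenases that were tested, 0 passed, with a median log2 ratio of 0.0885. The subunits Sdha, Sdhb and Sdhc of succinate dehydrogenase, the enzyme that itaconate inhibits, had ratios of 0.09, 0.20 and 0.18. The fourth subunit, Sdhd, is listed at 1.41 to 6.30 normalized counts, beside 5932.5 to 7161 for Sdhc, and was not tested. As for Pdk4, no limit on the expression of Sdhd is drawn from its value. Pdpr, a regulatory subunit of pyruvate dehydrogenase phosphatase, had the largest ratio of this list at -0.63 (limma's adjusted p = 0.159).

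In the lists for lipoate attachment and thiamine use, itaconate breakdown and itaconate-responsive regulators, 0 of 7, 0 of 9 and 0 of 9 genes tested passed, with medians of 0.0288, -0.0037 and 0.0079. In the latter pair of lists the largest ratios were -0.30 for the propionyl-CoA carboxylase subunit Pcca (limma's adjusted p = 0.186) and 0.22 for the quinone reductase Nqo1 (limma's adjusted p = 0.454). Of 10 genes of glutamine and glutamate entry, 0 passed and 8 had ratios below 0, with a median of -0.14. Over all genes tested, 49.3% had a ratio above 0 and the median was -0.0034. Of the 10 genes in this list, 3 had an unadjusted limma p under 0.05 (30%, against 19.8% of all genes), all lower in the knockout. The largest ratio there was that of Gls2, a glutaminase at 16.2 to 40.3 normalized counts (0.52, limma's adjusted p = 0.661).

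Of 10 genes of acetyl-CoA use and supply, 0 passed. Fasn, the fatty acid synthase, was measured at 1366 and 1129 normalized counts in wild type and at 968 and 813 in the knockout, without overlap. Its log2 ratio of -0.48 (SE 0.12, limma's adjusted p = 0.0519) was not called by edgeR. It was called lower by DESeq2 (adjusted p = 0.0299), by limma with column number as a block (adjusted p = 0.0102) and by limma without wild-type column 2 (adjusted p = 0.0423). It was -0.28 after removal of GC and length trends (limma's adjusted p = 0.272). In the argininosuccinate shunt, which feeds fumarate to the cycle, 0 of 4 genes passed, and the nitric oxide synthase Nos2 had the largest ratio (-0.26, limma's adjusted p = 0.187). Of 9 genes of lactate and pyruvate supply, 0 passed. The largest ratio was that of Ldhb, a lactate dehydrogenase subunit close to undetected at 3.02 to 28.3 normalized counts (-1.47, limma's adjusted p = 0.396).

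Markers of other cell types were measured beside these genes. Stromal markers summed to 693 and 778 normalized counts in wild type and to 456 and 366 in the knockout over 8 genes, of which Col1a1 and Col1a2 were called lower. Col1a2, Col3a1, Pdgfra and Thy1 were at 0 in both knockout columns, the last pair also in wild-type column 1, while Lum stood at 214 and 296 against 318 and 260. Dendritic cell markers summed to 9738 and 8957 against 13459 and 13906 over 6 genes. Most of that sum came from Xcr1 and Ccr7, both called higher, while Siglech was at 0 in every column and Flt3 and Zbtb46 were at most at 18.1. Neutrophil markers summed to 78.6 to 122 over 3 genes, T cell markers to 15.1 to 50.9 over 3 genes with Cd3d and Cd8a at 0, and B cell markers to 11.4 to 27.2 over 3 genes. The part of these cells in the values above was not tested.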

How the data were processed

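Per gene and column, the authors' deposited values are a normalized signal, taken here as read counts that were divided by a size factor. The values bear this out: within 0.01 reads, 100% come to whole reads when divided by their column's smallest step, so reads were recovered (1 read equals 1.26 to 1.62 normalized counts). Even numbers made up 69.5% to 72.1% of low counts, and both mates of a fragment may have been counted. Per the submitters' processing notes, mm10 is listed as build and StringTie as a tool, with no role stated; which aligner and counter made the values is not given in the sources used here. Columns without KO in their name were taken as wild type. The row without a gene name, 0.0272% to 0.0366% of reads, was left out.

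The test was limma 3.58.1 (trend option) applied to log2(normalized count + 1), with Benjamini-Hochberg adjustment over 12872 genes that reached 20 reads in some column and calls at adjusted p below 0.05. Ratios on that scale understate changes of low genes. Residual degrees of freedom were 2 and the prior added 12.2. Alternatives were edgeR 4.0.16 and DESeq2 1.42.0 on recovered reads, a pseudocount of 0.1, median centring, TMM scaling, no filter, at least 100 reads, subtraction of a loess trend on transcript GC and length fitted per column (span 0.3), column number as a block, and omission of each column in turn, where the remaining column of that genotype is taken to be as variable as the other genotype's. Transcript length and GC came from GENCODE M21 (GRCm38), with the longest APPRIS principal transcript (else the longest transcript), for 15292 genes and all 37 pathway genes. The fit was tested on simulated data with the same dispersion for every gene and independent columns. That test cannot tell where the variation among the real columns came from. R 4.3.3, Python 3.11.15, pandas 2.3.3 and matplotlib 3.10.9 were used.

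Pathway genes and lists were chosen with earlier results of these data known. Values in each column are given for Ninj1, Acod1, any gene of the pathway or neighbouring lists called by a test, and the largest ratio of each role group. Of neighbouring lists the called genes or the largest ratio are named, except where a gene is not reported here; other genes were named after their values were seen.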

Additional observations from a re-analysis of the deposited data

How the results depend on the processing

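None of the 36 pathway genes was called under any of the 13 alternatives, and the lowest adjusted p was 0.0644, for Mdh2 without wild-type column 2. DESeq2 gave no adjusted p for 4 of them (Idh2, Mpc1, Pdk2 and Suclg2). Their median log2 ratio, 0.08, lay between 0.009 and 0.14 when a column was left out and between 0.0375 and 0.0884 otherwise. Direction was kept everywhere by 27 genes. The ratio changed sign when a column was left out for 8 genes, with ranges of -0.177 to 0.0718 for Idh1, -0.196 to 0.267 for Idh2 (-0.149 without wild-type column 1), -0.388 to 0.103 for Suclg2, -0.0497 to 0.255 for Mdh1, -0.0127 to 0.125 for Pdha1, -0.0672 to 0.0576 for Pdk3, -0.0195 to 0.0038 for Slc25a1 and -0.0564 to 0.230 for Got2. It changed sign after removal of GC and length trends for Slc25a1 (0.0302) and Acly (0.0378). The cause was not tested.

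Calls over the whole table, 215 higher and 160 lower, were 341 higher by DESeq2, 122 and 100 without a filter, and 82 and 72 after removal of GC and length trends. They ran from 14 higher (without knockout column 1) to 355 (without wild-type column 2), 18 without wild-type column 1, 59 if knockout column 2 was omitted, and from 3 to 265 lower. The replicate block, a term for the column number, gave 322 higher and 280 lower and called 0 pathway genes. Same-numbered columns correlated at -0.0342 in their deviations from the genotype means, so the numbers were not taken to pair the columns. In the neighbouring lists, the 1 call higher became 0 by edgeR, without a filter, after removal of GC and length trends and without any of the 4 columns (range 0 to 0). The 0 calls lower became 1 (Fasn) by DESeq2, with the replicate block and without wild-type column 2 (range 0 to 1).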
